A study of Homo sapiens with 4 samples.

Results

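Linker histones and the heterochromatin proteins that work beside HP1 were followed through 9 genes: H1-2, H1-4, H1-10, CBX1, CBX3, CBX5, LMNB1, SUV39H1 and TRIM28. They were taken by name, with every probe that the platform annotation assigns to them, out of 19778 named genes. The 9 genes are read by 11 of 43893 probes with values, 3 of them for CBX3 and 1 for each other gene. Gene expression was measured on 4 single-colour bead arrays of a human prostate cancer cell line, spelled DU154 in the labels. The mH2A1.2_KO group held 2 arrays, replicates 1 and 2, from cells in which mH2A1.2 was depleted. This protein is 1 of the isoforms made by alternative splicing of MACROH2A1. The wild type group held 2 arrays, replicates 1 and 2, from wild type cells of the same line. The labels give neither the method of the depletion nor whether the cells were 1 clone. The series title names HP1a, the product of CBX5, and H1.2, the product of H1-2, so the comparison bears on whether the RNA of these and related genes differed when mH2A1.2 was depleted.

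Linker histones of the H1 family bind the nucleosome where DNA enters and leaves it, and they compact the chromatin fibre. H1-2 and H1-4 lie in a replication-dependent histone cluster, whose mRNAs mostly end in a stem-loop in place of a poly(A) tail, while H1-10 is a solitary gene expressed outside S phase. The HP1 proteins, encoded by CBX5 (HP1 alpha), CBX1 (HP1 beta) and CBX3 (HP1 gamma), read methylated lysine on histone H3. SUV39H1 is a methyltransferase that writes this mark, TRIM28 is a corepressor that KRAB zinc finger proteins use to recruit HP1, and LMNB1 encodes lamin B1 of the nuclear lamina, where much heterochromatin is anchored.

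The 3 linker histone promoters and that of CBX5 are shown because the H1 genes gave the highest and the lowest difference of the set. Each is the 250 bases before a RefSeq start on GRCh38.p14, 5′ to 3′ on the gene's strand, with the 50 bases after the start left out. Capitals mark matches on either strand to the H1 box AAACACA, the CCAAT box CCAAT, the TATA motif TATAAA or the GC box GGGCGG. The window of H1-2 is chr6:26056471-26056720 on the minus strand, that of H1-4 chr6:26156079-26156328 on the plus strand, that of H1-10 chr3:129316287-129316536 on the minus strand, and that of CBX5 chr12:54280123-54280372 on the minus strand, the farthest upstream of 3 annotated starts.
H1-2: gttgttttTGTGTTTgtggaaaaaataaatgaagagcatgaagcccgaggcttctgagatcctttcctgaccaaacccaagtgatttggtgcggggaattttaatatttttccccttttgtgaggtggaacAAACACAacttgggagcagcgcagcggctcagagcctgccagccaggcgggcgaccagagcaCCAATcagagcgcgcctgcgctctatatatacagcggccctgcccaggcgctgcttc
H1-4: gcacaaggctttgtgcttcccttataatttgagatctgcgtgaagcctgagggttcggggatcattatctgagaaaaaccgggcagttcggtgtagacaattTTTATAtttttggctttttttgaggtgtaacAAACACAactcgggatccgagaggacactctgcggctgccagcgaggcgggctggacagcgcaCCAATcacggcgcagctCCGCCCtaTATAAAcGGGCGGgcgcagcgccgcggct
H1-10: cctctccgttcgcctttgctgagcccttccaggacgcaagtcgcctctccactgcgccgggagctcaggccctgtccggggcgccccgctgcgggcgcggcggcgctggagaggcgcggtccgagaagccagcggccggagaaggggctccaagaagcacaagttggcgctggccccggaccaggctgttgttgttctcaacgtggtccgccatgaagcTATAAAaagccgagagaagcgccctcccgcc
CBX5: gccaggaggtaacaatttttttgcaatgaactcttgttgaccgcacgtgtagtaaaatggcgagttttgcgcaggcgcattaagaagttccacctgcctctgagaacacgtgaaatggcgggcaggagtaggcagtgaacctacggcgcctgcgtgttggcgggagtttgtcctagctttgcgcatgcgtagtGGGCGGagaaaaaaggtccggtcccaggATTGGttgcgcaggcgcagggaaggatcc

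The H1-2 and H1-4 windows both hold an H1 box and a CCAAT box. The forward H1 box lies 119 to 113 bases before the start of H1-2 and 117 to 111 bases before that of H1-4, inside a run of 13 identical bases, aacaaacacaact. The CCAAT box lies 57 to 53 bases before the start of H1-2 and 54 to 50 before that of H1-4. An H1 box was found in 4.82% of the 35116 promoter windows in the table, a CCAAT box in 32%, both in 1.54%, a TATA motif in 10.7% and a GC box in 42.6%. The H1-10 window holds a TATA motif and none of the other motifs, and the CBX5 window holds a CCAAT box and a GC box. Of the 9 genes, 8 had at least 1 promoter in the table. A match is a string of letters, and no binding was measured.

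The arrays detected 16921 and 16962 probes in mH2A1.2_KO and 18377 and 16727 in wild type, where detected means a detection p under 0.01. A probe entered the tests when detected on at least 2 of the 4 arrays, which left 16950. Of the member probes 9 entered, covering 8 genes. The deposited tables name 2 arrays differently: the signals filed under wild type replicate 2 in the raw table track the normalized column of mH2A1.2_KO replicate 1, and the reverse. Array names here are those of the normalized table, and which naming is right was not tested. Results under the other naming are in the closing section. Epithelial markers were detected for 6 of 7 genes and 9 of 10 probes. KRT5 was not above background on any array. The summed raw intensity of these probes was 17400 and 17600 in mH2A1.2_KO against 8770 and 9160 in wild type, and the part of this in the results below was not tested. No luminal prostate marker with a probe (4 genes) and no endothelial marker (5 genes) was detected on 2 arrays or more, and COL1A1 and CD14 were the detected fibroblast and blood markers.

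MACROH2A1, the gene whose splice form was depleted, measured lower on its brightest probe, with 11.97 and 11.83 in mH2A1.2_KO against 13.02 and 12.91 in wild type on the log2 scale. The difference was -1.07 ± 0.16 (SE, 2 arrays per group), with an adjusted p of 0.246 in limma. It was -1.12 without wild type replicate 2, and under the raw table's naming of the arrays, with limma's neqc, it was -0.13. A second probe measured -1.02 ± 0.17 (adjusted p = 0.271), the third 0.62 ± 0.24 (adjusted p = 0.626), and the fourth was not above background on any array. Which of these probes, if any, is specific for the mH2A1.2 isoform is not annotated. MACROH2A2, the related variant, measured -0.58 ± 0.17 (adjusted p = 0.487).

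None of the member probes passed the test, and 0% of all 16950 probes did. Across all probes the lowest adjusted p was 0.193, and 1282 probes had an unadjusted p under 0.05. Among the 9 detected member probes, 7 measured higher in mH2A1.2_KO and 2 lower, where 47.9% of all detected probes measured higher. The median log2 difference of the 9 was 0.18, against -0.01 over all detected probes. That median became 0.12 when mH2A1.2_KO replicate 2 was left out, 0.045 when wild type replicate 1 was, and 0.40 when wild type replicate 2 was. With neqc on the raw signals and the arrays named as here it was 0.33. Arrays did not overlap between the groups for 3 of them, H1-2, CBX5 and LMNB1, all higher. They are 33.3% of the 9, where 35.7% of all detected probes had arrays that did not overlap, 17.1% higher and 18.5% lower. The unadjusted p was under 0.05 for 1 of the 9, H1-2, against 7.56% of all detected probes, 4.36% higher and 3.2% lower. With 2 arrays per group an exact permutation test of a single probe cannot go below 0.333, so no such test was used. Nothing in the labels says that replicates were separate cultures, so the p-values cover array-to-array spread that may be technical only.

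**Figure D1:**
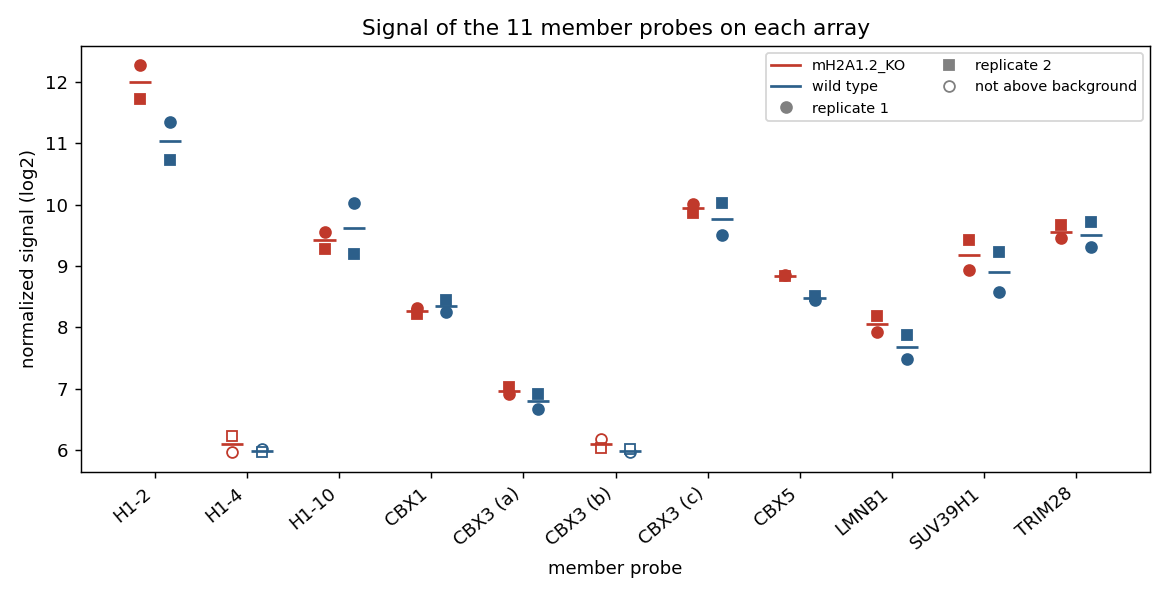
Normalized log2 signal (vertical axis) of the 11 member probes (horizontal axis), with mH2A1.2_KO in red left of wild type in blue, circles for replicate 1, squares for replicate 2, short lines for the group mean and open symbols for a probe not above background. CBX3 (a), (b) and (c) are its 3 probes in the order of the text. H1-2 shows both mH2A1.2_KO arrays above both wild type arrays, and H1-4 and CBX3 (b) lie at background on every array.

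H1-2, the linker histone H1.2, had the largest difference of the set. Its signal was 12.27 and 11.72 in mH2A1.2_KO against 11.35 and 10.72 in wild type. Both mH2A1.2_KO arrays lay above both wild type arrays, although the gap between mH2A1.2_KO replicate 2 and wild type replicate 1 was 0.38. In raw intensity, before any normalization, the probe gave 4790 and 3700 in mH2A1.2_KO against 2550 and 1700 in wild type. The difference was 0.97 ± 0.28 (SE), or 1.95-fold, with a 95% interval of 0.29 to 1.64, an unadjusted p of 0.0129 and an adjusted p of 0.49. A difference of this size or more, in either direction, was measured for 0.861% of all detected probes. Leaving out 1 array gave 0.65 to 1.28. Under the raw table's own naming of the arrays, with limma's neqc, the difference was -0.60.

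H1-4, the linker histone H1.4, could not be compared. Its probe measured 5.97 and 6.22 in mH2A1.2_KO and 6.02 and 5.96 in wild type. The detection p was 0.903 and 0.648 in mH2A1.2_KO and 0.731 and 0.858 in wild type, so on every array the probe lay at background. H1-2 and H1-4 are similar in coding sequence, and since probe sequences were not used here, it was not tested how far either probe could bind the transcript of the other.

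H1-10, the linker histone H1.10 (also H1X), measured 9.55 and 9.28 in mH2A1.2_KO and 10.03 and 9.19 in wild type. Both mH2A1.2_KO arrays lay between the wild type arrays. The difference was -0.19 ± 0.29, with a 95% interval of -0.90 to 0.51 and an adjusted p of 0.975. Without wild type replicate 1 it became 0.23, and without wild type replicate 2 it was -0.61, so the sign rested on a single wild type array.

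The other H1 genes with a probe gave no tested value. H1-1 was above background on mH2A1.2_KO replicate 1 alone, with 6.85 and 6.44 in mH2A1.2_KO and 6.47 and 6.48 in wild type. H1-3 and H1-5, further somatic H1 genes of the replication-dependent cluster, were not above background on any array. H1-5 came nearest on mH2A1.2_KO replicate 2, with a detection p of 0.0104. The germ cell variants H1-6, H1-7 and H1-8 were not above background on any array. Of 9 H1 genes with a probe, H1-2 and H1-10 were thus the 2 that could be compared.

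CBX5, the gene of HP1 alpha, measured 8.85 and 8.83 in mH2A1.2_KO against 8.44 and 8.51 in wild type. The arrays of a group lay within 0.08 of each other, and the groups did not overlap. The difference was 0.36 ± 0.15, or 1.29-fold, with a 95% interval of -0.01 to 0.74, an unadjusted p of 0.0546 and an adjusted p of 0.674. It stayed between 0.32 and 0.40 when 1 array was left out, and it was 0.39 between mH2A1.2_KO replicate 2 and wild type replicate 1. A difference of at least this size was measured for 13.6% of all detected probes. With neqc it was 0.47 with the arrays named as here and 0.01 under the raw table's naming.

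CBX1, the gene of HP1 beta, measured 8.32 and 8.21 in mH2A1.2_KO and 8.25 and 8.45 in wild type. The groups overlapped, and the difference was -0.09 ± 0.16 (95% interval -0.49 to 0.31, adjusted p = 0.988). Without wild type replicate 2 this became 0.01.

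CBX3, the gene of HP1 gamma, was read by 3 probes, (a) to (c). Probe (a) was dim and measured 6.91 and 7.02 in mH2A1.2_KO and 6.66 and 6.92 in wild type, with its highest detection p, 0.0039, on wild type replicate 1. Probe (b) was not above background on any array, at 6.18 and 6.03 in mH2A1.2_KO and 5.97 and 6.01 in wild type. Probe (c), annotated to another transcript accession, measured 10.01 and 9.87 in mH2A1.2_KO and 9.50 and 10.03 in wild type. For both detected probes the mH2A1.2_KO arrays overlapped the wild type arrays. Probe (a) differed by 0.17 ± 0.17 (95% interval -0.24 to 0.59, adjusted p = 0.941) and probe (c) by 0.18 ± 0.22 (-0.35 to 0.70, adjusted p = 0.959). For probe (a) neqc gave 0.49 in place of 0.17, and for probe (c) the difference was -0.08 without wild type replicate 1.

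The interval of the difference for CBX5 overlapped those of CBX1 and CBX3, and the differences of the HP1 genes were not tested against each other.

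**Figure D2:**
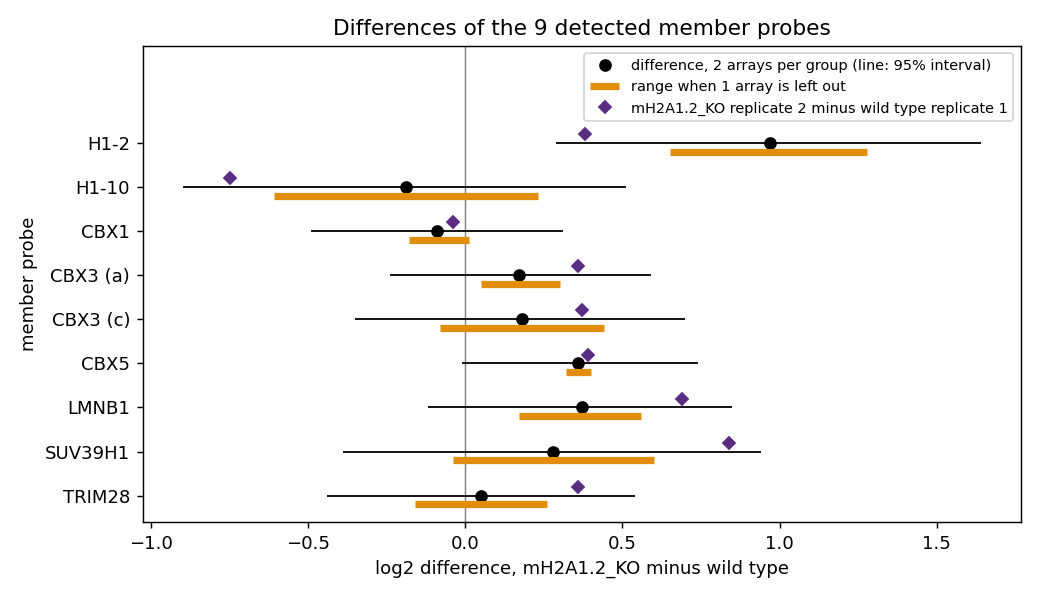
Log2 difference, mH2A1.2_KO minus wild type (horizontal axis), of the 9 detected member probes (vertical axis). Black points carry their 95% interval, orange bars span the values with 1 array left out, and purple diamonds give mH2A1.2_KO replicate 2 minus wild type replicate 1. The interval of H1-2, 0.29 to 1.64, is the one that does not reach 0, before adjustment over all probes.

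LMNB1, the gene of lamin B1, measured 7.93 and 8.18 in mH2A1.2_KO against 7.49 and 7.88 in wild type. The groups did not overlap, but wild type replicate 2 and mH2A1.2_KO replicate 1 nearly met. The difference was 0.37 ± 0.20, or 1.29-fold (95% interval -0.12 to 0.85, adjusted p = 0.794). Leaving out wild type replicate 1 gave 0.17 and leaving out wild type replicate 2 gave 0.56.

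SUV39H1, the histone H3 methyltransferase, measured 8.93 and 9.42 in mH2A1.2_KO and 8.58 and 9.22 in wild type. The groups overlapped, and in both the arrays of replicate 2 were the higher. The difference was 0.28 ± 0.27 (95% interval -0.39 to 0.94, adjusted p = 0.941), and it was -0.04 without wild type replicate 1 and 0.60 without wild type replicate 2.

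TRIM28, the corepressor KAP1, had the smallest difference of the detected member probes. It measured 9.46 and 9.66 in mH2A1.2_KO and 9.30 and 9.72 in wild type, and both mH2A1.2_KO arrays lay between the wild type arrays. The difference was 0.05 ± 0.20 (95% interval -0.44 to 0.54, adjusted p = 0.991), -0.16 without wild type replicate 1 and -0.05 without mH2A1.2_KO replicate 2.

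The gap between the arrays of a group was of the same order as most of these differences. Over the 9 detected member probes the median gap was 0.20 in mH2A1.2_KO and 0.42 in wild type, against 0.17 in mH2A1.2_KO and 0.24 in wild type over all detected probes. H1-2 and H1-10 were higher on replicate 1 in both groups, by 0.55 in mH2A1.2_KO and 0.63 in wild type for H1-2 and by 0.27 in mH2A1.2_KO and 0.84 in wild type for H1-10. LMNB1, SUV39H1, TRIM28 and CBX3 (a) were higher on replicate 2 in both groups, with gaps of -0.49 in mH2A1.2_KO and -0.64 in wild type for SUV39H1. Same-numbered arrays thus moved the same way for 66.7% of member probes and for 68.9% of all detected probes.

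**Figure D3:**
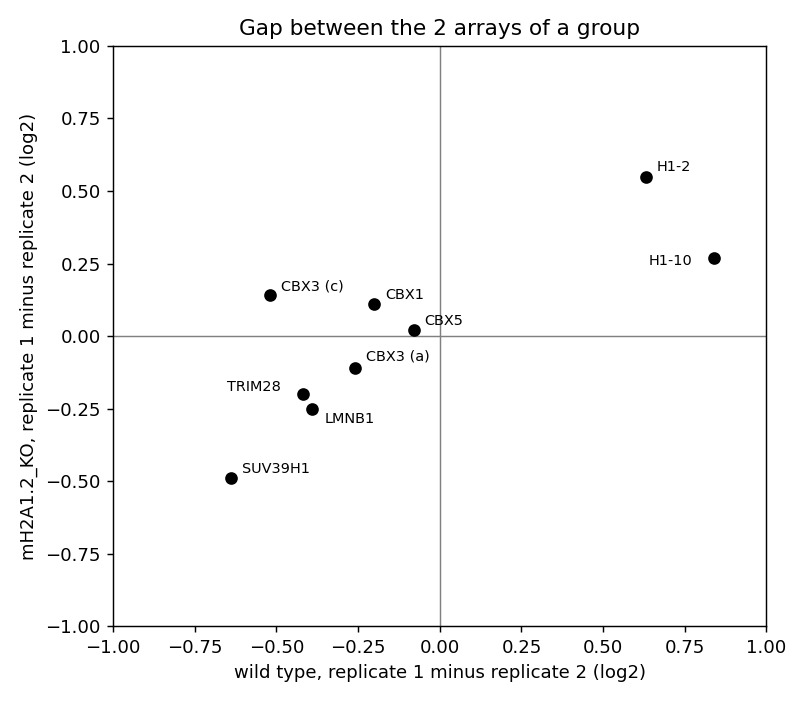
Replicate 1 minus replicate 2 on the log2 scale in mH2A1.2_KO (vertical axis) against wild type (horizontal axis), 1 point per detected member probe. H1-2 and H1-10 lie in the upper right and SUV39H1, LMNB1, TRIM28 and CBX3 (a) in the lower left, so the arrays with the same number were high or low together for 6 of the 9.

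The wider heterochromatin machinery was described by 6 gene lists, with no test of a list. The highest and lowest genes of a list are ranked by the brightest detected probe of each gene, so other probes can lie beyond them. Arrays did not overlap between the groups for 35.7% of all detected probes, to which the list shares below compare. The linker histone family has only H1-2 and H1-10 among its detected probes. HP1 proteins and their direct partners had 31 detected probes of 21 genes, 10 higher and 21 lower in mH2A1.2_KO, with a median difference of -0.061 and arrays that did not overlap for 1 higher and 5 lower, 19.4% of the list. Of this list CBX5 (0.36) and CBX3 (0.18) ranked highest. The lowest were TRIM33 (-0.59 ± 0.20, adjusted p = 0.564), a paralog of TRIM28, and the origin recognition subunit ORC1 (-0.35 ± 0.22, adjusted p = 0.851). TRIM33 measured 8.88 and 8.77 in mH2A1.2_KO against 9.64 and 9.19 in wild type. A dimmer probe of TRIM33 measured -0.26 ± 0.21 (adjusted p = 0.912), with arrays that overlapped between the groups. A dimmer probe of ZNF280D measured -0.43. With 1 array left out TRIM33 ran from -0.82 (without wild type replicate 2) to -0.37 (without wild type replicate 1) and ORC1 from -0.58 (without wild type replicate 1) to -0.13 (without wild type replicate 2).

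Methyltransferases of H3 and H4 with their cofactors and readers had 27 detected probes of 19 genes, 7 higher and 20 lower, with a median of -0.12. The list also holds the DNA methyltransferases DNMT1 and DNMT3B and the methylated DNA binder MBD1, whose detected probes all measured lower. Arrays did not overlap for 2 higher and 11 lower probes, 48.1% of the list. A dim EHMT1 probe (0.20), counted among the higher ones, was above background on the mH2A1.2_KO arrays alone. Its detection p was 0.00779 and 0.00649 in mH2A1.2_KO and 0.0519 and 0.0156 in wild type. It thus entered the tests through the group in which it was higher. The highest were SUV39H1 (0.28) and PPHLN1 (0.27 ± 0.16), a subunit of the HUSH silencing complex, and the lowest were TASOR (-0.39 ± 0.23), the scaffold of the same complex, and UHRF1 (-0.38 ± 0.22), which reads hemimethylated DNA and methylated H3. TASOR measured 7.40 and 7.24 in mH2A1.2_KO against 8.01 and 7.42 in wild type, and its difference was -0.68 without wild type replicate 2 and -0.10 without wild type replicate 1. UHRF1 ran from -0.63 without wild type replicate 1 to -0.14 without wild type replicate 2. SUV39H1 thus lay on the higher side of a list in which most probes measured lower.

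Demethylases of H3 had 12 detected probes of 10 genes, 6 higher and 6 lower, with a median of 0.0013 and arrays that did not overlap for 41.7%. KDM3A (0.24 ± 0.26) and KDM4C (0.21 ± 0.16) ranked highest, and KDM3B (-0.31 ± 0.15) and KDM1A (-0.28 ± 0.15) lowest. KDM3A was -0.09 without wild type replicate 1. The KDM4C probe was dim and not above background on wild type replicate 2 (detection p 0.0156). All 4 are enzymes that remove methyl groups from histone lysines.

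Nuclear lamina genes had 25 detected probes of 19 genes, 14 higher and 11 lower, with a median of 0.031 and arrays that did not overlap for 24%. The list also holds LUC7L3, a splicing protein. LMNB1 (0.37) and TOR1A (0.14 ± 0.18), the ATPase torsin A, ranked highest by brightest probe, while a dimmer probe of LMNA measured 0.24. LMNB2, the other B-type lamin, was lowest, with 11.13 and 11.52 in mH2A1.2_KO against 11.72 and 11.82 in wild type, a difference of -0.45 ± 0.19 (adjusted p = 0.68). Leaving out replicate 2 of mH2A1.2_KO gave -0.64, and leaving out its replicate 1 gave -0.25. TMEM43, an inner nuclear membrane protein, measured -0.22 ± 0.20. LMNB1 and LMNB2 differed in opposite directions with arrays that did not overlap, and neither passed the test.

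Linker histone chaperones and the chromatin proteins that compete with H1 had 25 detected probes of 17 genes, 11 higher and 14 lower, with a median of -0.030 and arrays that did not overlap for 20%. PTMA (0.28 ± 0.30), prothymosin alpha, and HMGN3 (0.18 ± 0.15), a nucleosome-binding protein, ranked highest by brightest probe. The HMGN3 probe was above background on the mH2A1.2_KO arrays alone (detection p 0.00779 and 0.00649 in mH2A1.2_KO, 0.183 and 0.0182 in wild type), so it entered the tests through the group in which it was higher. A dimmer probe of HMGB2 measured 0.25. HMGA1 (-0.24 ± 0.15), which binds AT-rich DNA, and the chaperone NAP1L1 (-0.24 ± 0.16) ranked lowest by brightest probe, while a dimmer probe of HMGN2 measured -0.31. In the 6 lists 0 probes passed the test. An unadjusted p under 0.05 was found for 1 of 2 probes in the linker histone family (H1-2). Among HP1 partners it was found for 1 of 31 (TRIM33), and in the other lists for none. Of all detected probes 7.56% had such a p.

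**Figure D4:**
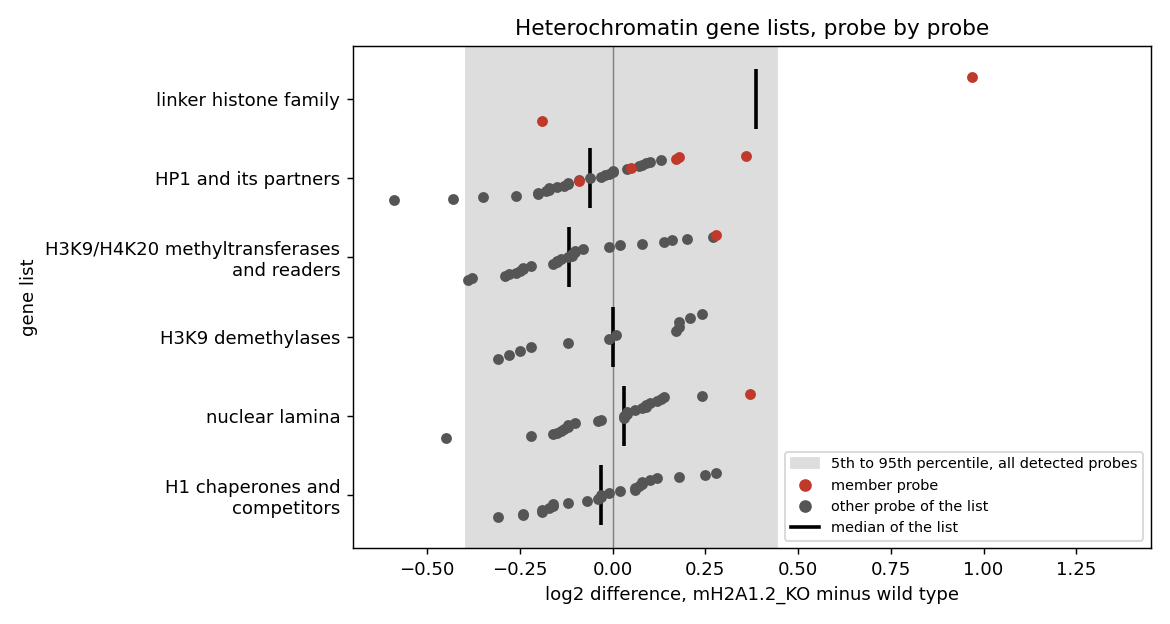
Log2 difference, mH2A1.2_KO minus wild type (horizontal axis), of every detected probe in the 6 gene lists (vertical axis), with member probes in red, other probes in grey, the list median as a black line and the 5th to 95th percentile of all detected probes shaded. H1-2, at 0.97, lies above the shaded band of -0.40 to 0.44, and CBX5 and LMNB1 lie inside its upper part. Probes of TRIM33 (-0.59), LMNB2 (-0.45) and ZNF280D (-0.43) lie below the band.

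The probes whose pattern over the 4 arrays was nearest to that of H1-2, by Euclidean distance of centred log2 values among named detected probes, were ADGRG1 (distance 0.0667), CD70 (0.079) and SNORD3A (0.133). ADGRG1, an adhesion receptor, measured 9.66 and 9.20 in mH2A1.2_KO against 8.75 and 8.17 in wild type, with the same order of the arrays as H1-2. CD70, a ligand of the tumour necrosis factor family, differed by 1.0 ± 0.29 and the U3 small nucleolar RNA SNORD3A by 1.07 ± 0.30. Nearest to CBX5 were SMIM11 (distance 0.00469), AZI2 (0.0175) and TTC9C (0.0267), with differences of 0.36, 0.37 and 0.36. With 4 arrays such likeness is a description of 4 values per probe.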

How the data were processed

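Per the labels' protocols, column-purified total RNA was made into biotinylated cRNA for single-colour bead arrays. GenomeStudio is named in the submitters' processing notes. The authors deposited raw intensity for 47230 probes, each with detection p-values. The authors also deposited normalized log2 values, with 43893 rows that hold values. How they were normalized is not stated in the labels or files.

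The deposited log2 values were quantile-normalized across the 4 arrays. Each raw array was matched to the normalized column it follows over 7303 probes (correlation of at least 0.998, the next highest 0.0151), and detection p-values were taken through that match. Groups were compared per probe by limma's moderated linear model (version 3.58.1, R 4.3.3, two-sided, degrees of freedom 2 residual and 4.3 prior). P-values were adjusted by Benjamini-Hochberg over 16950 probes with a threshold of 0.05. An adjusted p here comes from that test unless another setting is named with it. In another setting the adjustment ran over the probes of that setting. The fit was tested on simulated data. Genes were named through the platform annotation and current RefSeq symbols (29471 probes with 1 gene, 14422 unnamed here). The text names every member, MACROH2A1, MACROH2A2 and H1 family probe, the 2 highest and 2 lowest genes of each other list, and 3 nearest probes to H1-2 and to CBX5. Members and lists were chosen with earlier results of these data known. Array precision is limited by the number of arrays.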

Additional observations from a re-analysis of the deposited data

How the results depend on the processing

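The direction of H1-2, CBX5 and LMNB1 held in every alternative with the arrays named as here. The number of arrays and dim signal set the limits: H1-4 and 1 CBX3 probe were at background, and wild type replicate 1 carried the sign of several differences.

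The number of probes past the test, 0 as reported, was 5 with no detection filter, where the 5 were 2 probes of MUC1 and 1 each of PLAAT4, KRT8 and an unnamed transcript, named after their values were seen. It was 0 to 211 when 1 array was left out (69 without wild type replicate 1, 211 without wild type replicate 2). The number with an unadjusted p under 0.05, 1282 as reported, was 2409 with neqc under the raw table's naming, 2514 with no detection filter and 474 to 2525 when 1 array was left out, lowest without mH2A1.2_KO replicate 1 and highest without wild type replicate 2, with 603 when mH2A1.2_KO replicate 2 was left out. The number of member probes with arrays that did not overlap was 3 to 8 with 1 array left out, where fewer arrays overlap less often. Member probes measured higher for 5 to 8 of 9 in those settings. The shares of all detected probes were not computed there, so neither count can be set against them.

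With the replicate number as a block (replicate block), 647 probes passed the test and 2905 had an unadjusted p under 0.05. Of the members 1 passed, H1-2 (0.97 ± 0.14, adjusted p = 0.0038), with differences of 0.92 between the arrays numbered 1 and 1.01 between those numbered 2. MACROH2A1 passed on 3 probes (-1.07, -1.02 and 0.62). CD70 (1.0), ADGRG1 (0.97) and SNORD3A (1.07) passed as well. No label ties arrays of 1 number to a shared culture or day. Deviations of same-numbered arrays correlated at 0.567 across probes, a hint from the data and not from the design. Only 2 pairs exist.

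Under the raw table's naming with neqc, which splits the arrays by replicate number, these differences turned: H1-2 -0.60, CBX1 0.03, MACROH2A2 0.09, MACROH2A1 -0.51 (0.62 as reported) and 0.01 (-1.02 as reported), ORC1 0.57, UHRF1 0.36, KDM3B 0.07, LMNB2 0.26, TMEM43 0.31, HMGA1 0.07, NAP1L1 0.12, ADGRG1 -0.60, CD70 -0.64, SNORD3A -0.69 and TTC9C -0.04. The brightest MACROH2A1 probe kept its sign at -0.13. List medians under that naming were -0.60 for the linker histone family, 0.21 for HP1 partners, 0.066 for methyltransferases and readers, -0.15 for demethylases, -0.077 for the lamina and 0.18 for H1 chaperones. That grouping comes from the header of the deposited raw table. Which of the 2 namings is right was not tested. Under the raw table's naming each group holds 1 high and 1 low array of the brightest MACROH2A1 probe. In the normalized values these are 13.02 and 11.97 for wild type and 12.91 and 11.83 for mH2A1.2_KO. Under the naming used here, the raw columns run in the order of the letters that end the array titles, E, F, G and H.

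Between mH2A1.2_KO replicate 2 and wild type replicate 1, which both tables place alike (chosen after seeing the data), ORC1 (0.05) and TMEM43 (0.08) turned, and list medians were -0.18 for the linker histone family, -0.058 for methyltransferases and readers, -0.19 for demethylases, -0.062 for the lamina, 0.054 for HP1 partners and 0.10 for H1 chaperones. With 1 array left out, differences whose sign turned ran from -0.61 to 0.23 (H1-10), -0.18 to 0.01 (CBX1), -0.08 to 0.44 (CBX3 (c)), -0.04 to 0.60 (SUV39H1), -0.16 to 0.26 (TRIM28), -0.09 to 0.56 (KDM3A), -0.03 to 0.31 (TOR1A) and -0.07 to 0.64 (PTMA). The median of methyltransferases and readers ran from -0.14 to -0.0495, and that of the linker histone family from 0.018 to 0.75. The other list medians turned sign, running from -0.13 to 0.029 for HP1 partners, -0.16 to 0.060 for demethylases, -0.018 to 0.075 for the lamina and -0.10 to 0.090 for H1 chaperones. SNORD3A differed by 1.44 without wild type replicate 1. The causes were not tested. Each member probe tested kept its direction and its side of the threshold with the deposited values alone, neqc with the arrays named as here, no filter, detection on all 4 arrays, 1 probe per gene and an intensity trend.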
